A study of Mus musculus with 120 samples.

Results

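The homeobox transcription factors described here are 28 of the 16538 genes in the deposited count table. They come from a match of gene symbols to a list of homeobox gene names, with no threshold on a measured value. By family they are 6 POU genes (Pou3f3, Pou2f1, Pou2f2, Pou6f1, Pou5f2 and Pou1f1), 2 LIM genes (Lhx2 and Lhx9), 4 TALE genes (Pbx2, Pbx4, Meis3 and Pknox2), 4 CUT genes (Cux1, Cux2, Satb1 and Onecut2), 10 zinc finger homeobox genes (Zfhx2, Zfhx3, Zfhx4, Zeb1, Zhx1, Zhx2, Zhx3, Tshz1, Tshz2 and Tshz3), the SINE gene Six4 and the PRD-like gene Otx2. Hox, Dlx and Irx genes and other members of the named groups were not analysed here.

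Homeobox genes encode transcription factors that bind DNA through a homeodomain, a helix-turn-helix fold that reads short AT-rich sites. Many carry a further DNA-binding or partner-binding part: the POU-specific domain, CUT repeats, zinc fingers, or LIM domains that bind the cofactor Ldb1, while TALE proteins act as partners of other homeodomain proteins. In the embryo these factors pattern the forebrain and set the identity of thalamic neurons, and several remain expressed in mature neurons.

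The libraries are bulk RNA-seq profiles of pools of 14 to 200.0 hand-sorted thalamic neurons, each pool labelled by a retrograde tracer injected into a target of 1 thalamic nucleus. The 120 libraries form 24 groups covering 22 nuclei and were made from 85 animals. More than 1 library came from each of 44 animals. All but 1 library, a VA library from the line named 33.7-Gad2, were given as wildtype, and the strain is not given in the sources used here.

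Neurons labelled from the striatum by a retrograde adeno-associated virus (AAV: rAAV2retro-GFP or rAAV2retro-tdTom) gave libraries of PVT (3 female, 99 to 103 days), IMD (4 female, 98 to 103 days), PCN (2 female and 2 male, 125 to 136 days) and CM (2 female and 2 male, 125 to 136 days). The same label gave CL (4 female, 98 to 103 days), PF (4 female, 125 to 157 days) and SPA (4 female, 125 to 157 days). The dye DiI injected into the striatum gave a second set of CM (3 male, 98 to 99 days). All other groups but 1 were labelled by DiI from a cortical area. Primary motor cortex gave VA (7 female and 1 male, 87 to 182 days), VL (2 female, 3 male and 1 mixed-sex pool, 87 to 163 days) and VM (3 female and 3 male, 95 to 112 days), with a virus labelling axons from the substantia nigra reticulata and deep cerebellar nuclei. Primary visual cortex gave LP (9 male, 64 to 135 days) and LGd (5 male, 64 to 136 days), with cholera toxin B in the eyes. Retrosplenial cortex gave AD (4 male, 97 to 100 days), AV (8 male, 97 to 444 days) and LD (5 male, 90 to 442 days). Cingulate cortex gave AM (4 female, 69 to 72 days), RE (5 female and 3 male, 55 to 114 days) and IAD (1 female and 2 male, 55 to 114 days), and also 1 AAV-labelled AM library from a female of 77 days. Barrel cortex gave PO (7 male, 69 to 100 days) and VB (4 male, 69 to 100 days), insular cortex VPMpc (1 female and 5 male, 62 to 447 days) and orbital cortex MD (6 male, 83 to 94 days). Ages of 3 libraries were not given, and 13 libraries pooled animals. The striatum-labelled nuclei are midline and intralaminar ones (paraventricular PVT, intermediodorsal IMD, paracentral PCN, centromedial CM, centrolateral CL, parafascicular PF and the subparafascicular area SPA). They are not all of the midline nuclei: RE and IAD, also of the midline, were labelled from cingulate cortex.

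Totals were 8159497 to 26444831 reads per library, and levels are given as CPM, read counts scaled to library size after TMM normalisation. Of 5 thalamic neuron markers, Slc17a6, Tcf7l2 and Rora were at least 518, 813 and 472 CPM in every library. The other markers varied widely: Prkcd ran from 1.92 to 2243 CPM and Tnnt1 from 0 to 328 CPM. Tnnt1 had no read in 2 libraries. Of 7 inhibitory neuron markers 3 were measured, and their summed level was 52.0 to 167 CPM in RE and up to 343 CPM in VA. Of 6 oligodendrocyte markers 5 were measured, and their sum passed 100 CPM in 21 libraries. It was 61.7 to 1575 CPM in VB. In VA it was 3.34 to 3206 CPM, the highest value of all groups, with 3 of 8 libraries over 100 CPM. Libraries amplified on different dates hold different nuclei: the 14 dates join the nuclei into 5 sets, and between sets nucleus and date cannot be told apart. In bulk libraries fewer cells with a transcript and less transcript per cell cannot be told apart. Because 44 animals gave more than 1 library, the libraries are not all from separate animals, and p-values measure the spread between these libraries.

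The promoter windows of 3 genes are shown because their transcripts had no read in some nuclei (Otx2, Pou3f3) or differed most from the striatum-labelled to the cortex-labelled nuclei among LIM genes (Lhx2). Each runs from 250 bases before to 50 bases after a RefSeq transcript start, in the direction of transcription, in build GRCm38.p6. Capitals mark matches, on either strand, to the homeodomain core TAATTA, the TATA box TATAAA or the TALE motif TGACAG. RefSeq gives 4 windows for Otx2 and 2 for Lhx2. Shown are the 2 Otx2 windows that hold a motif and 1 of the Lhx2 windows; the others hold none of these motifs. The 2 Otx2 windows are at chr14:48667595-48667894 and chr14:48665060-48665359, minus strand, the Pou3f3 window at chr1:42695518-42695817 and the Lhx2 window at chr2:38351058-38351357, both plus strand.
Otx2 window 1: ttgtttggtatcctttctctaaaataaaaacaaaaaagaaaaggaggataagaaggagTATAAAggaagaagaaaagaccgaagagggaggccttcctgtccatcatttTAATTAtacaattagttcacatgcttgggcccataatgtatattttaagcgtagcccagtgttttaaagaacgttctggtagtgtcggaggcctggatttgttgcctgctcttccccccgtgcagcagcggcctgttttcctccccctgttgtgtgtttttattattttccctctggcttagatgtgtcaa
Otx2 window 2: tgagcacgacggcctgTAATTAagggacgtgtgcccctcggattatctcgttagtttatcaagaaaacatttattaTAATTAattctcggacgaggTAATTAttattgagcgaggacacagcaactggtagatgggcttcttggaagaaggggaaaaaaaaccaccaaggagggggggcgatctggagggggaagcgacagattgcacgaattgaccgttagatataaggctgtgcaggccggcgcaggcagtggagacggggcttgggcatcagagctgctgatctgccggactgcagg
Pou3f3: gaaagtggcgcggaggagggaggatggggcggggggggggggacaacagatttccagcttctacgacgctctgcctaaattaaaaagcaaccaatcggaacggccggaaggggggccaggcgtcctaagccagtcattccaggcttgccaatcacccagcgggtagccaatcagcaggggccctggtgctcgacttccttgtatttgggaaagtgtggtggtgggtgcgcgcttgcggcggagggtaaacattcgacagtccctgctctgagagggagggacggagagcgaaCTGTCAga
Lhx2: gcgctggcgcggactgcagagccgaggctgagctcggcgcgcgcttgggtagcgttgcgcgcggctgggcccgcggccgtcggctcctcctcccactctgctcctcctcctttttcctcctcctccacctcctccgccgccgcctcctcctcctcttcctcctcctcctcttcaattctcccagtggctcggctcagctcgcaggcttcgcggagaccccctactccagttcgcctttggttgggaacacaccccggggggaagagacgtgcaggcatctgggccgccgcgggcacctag

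RefSeq windows were matched for 21 of the 28 genes, 34 windows in all, against 32851 windows of all genes. TAATTA lay in 2 of the 34 windows (5.882%), both of Otx2, against 5.291% of all windows. TGACAG lay in 8.824% of them (Cux2, Lhx9 and Pou3f3) against 19.177% of all, TATAAA in 11.765% (Cux2, Otx2, Pou1f1 and Pou2f1) against 13.616%, and the octamer ATGCAAAT bound by POU factors in none against 1.735%. Neither Lhx2 window held any of these motifs. Median GC content was 58.2% in the 34 windows and 52.7% in all. A match describes these letters and says nothing of binding.

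Most of these genes differed between nuclei. In the joint test that the 22 nuclei are equal (edgeR's quasi-likelihood F test, Benjamini-Hochberg adjustment over 16527 genes, call at adjusted p under 0.05), 22 of the 28 genes were called, against 55.1% of all genes tested. The largest F values belonged to Zfhx4, Otx2, Tshz2, Pou3f3, Lhx9, Cux1 and Zeb1, in that order. In the family paragraphs below, F and adjusted p are of this joint test and not of the nuclei named beside them. Those nuclei were picked as high or low by the same values. A lack of overlap between them therefore describes the values and is not separate support. Pbx2, Pbx4, Meis3, Pou6f1, Zhx2 and Zhx3 were not called, but each of these except Zhx3 was called under at least 1 alternative setting. With the amplification date in the fit, which compares only nuclei joined by shared dates, 16 were called: the calls of Zfhx2, Zfhx3, Zhx1, Pknox2, Six4 and Otx2 were lost. Per kilobase of exon, the median over nuclei was highest for Zfhx3 at 46.7 CPM per kb, followed by Zeb1 at 18.1 and Zhx1 at 16.8. Otx2 had no read in 15 of 22 nuclei, Pou3f3 in 7 (CM by its AAV libraries) and Pou5f2 in 4.

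**Figure D1:**
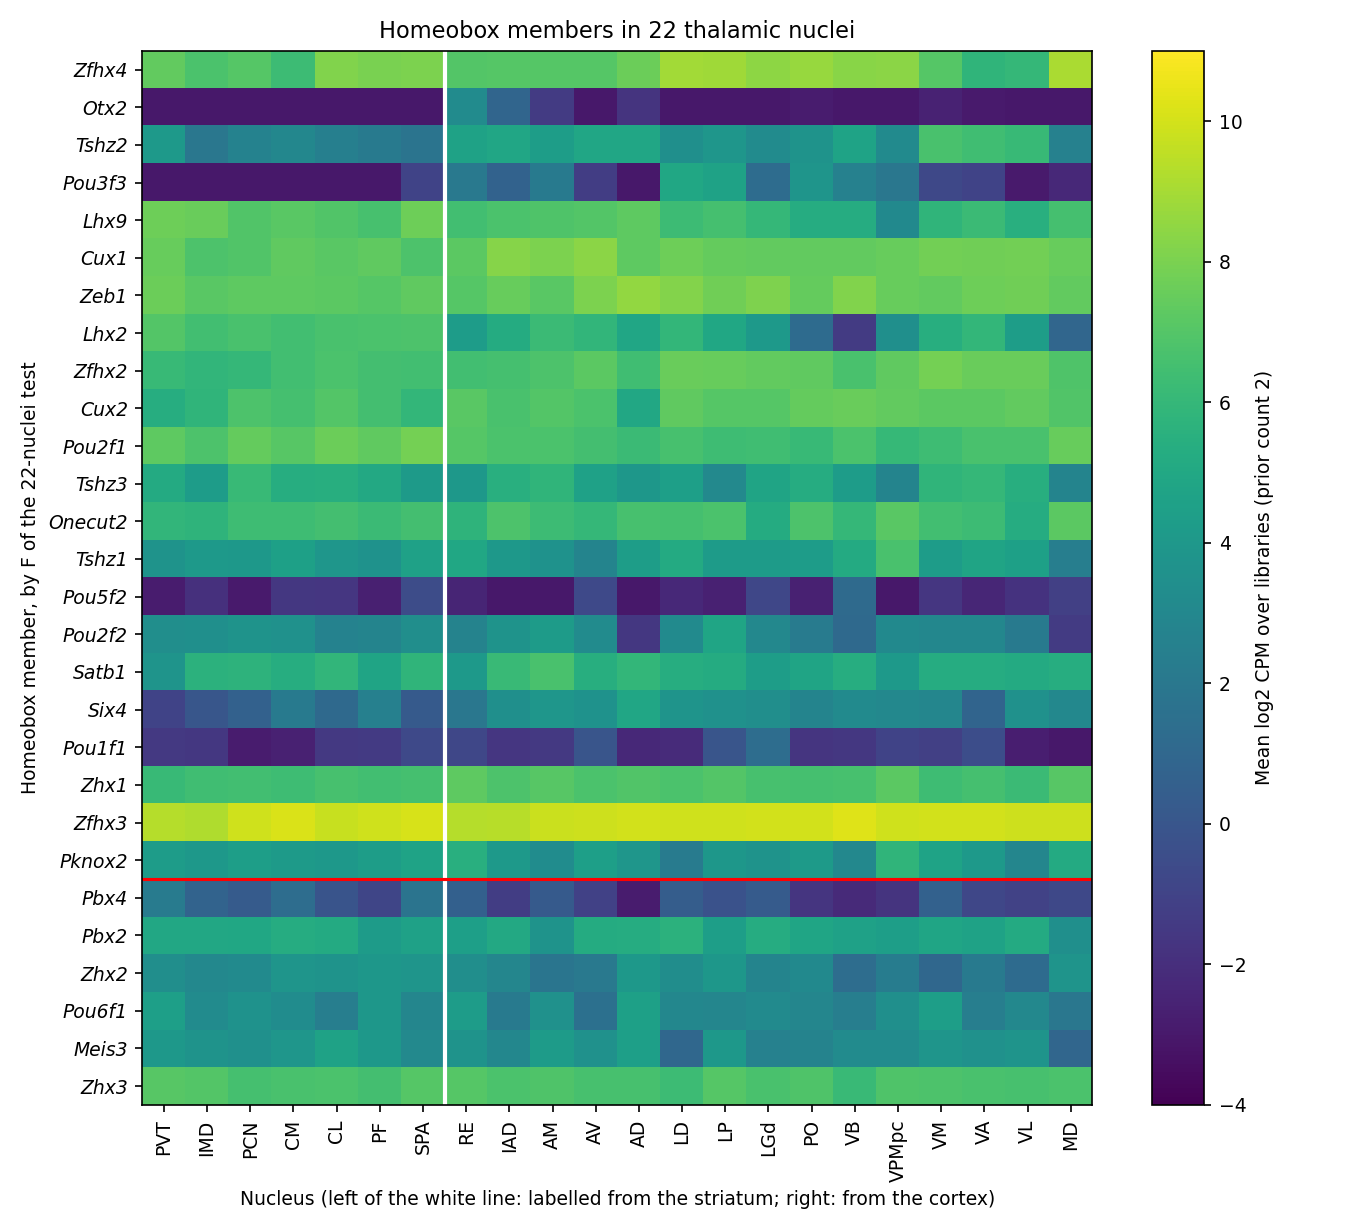
Mean log2 CPM of the 28 genes (rows) in the 22 nuclei (columns), coloured by level, with striatum-labelled nuclei left of the white line and genes not called between nuclei under the red line. Zfhx3 is high throughout, while Otx2 and Pou3f3 are at the lowest level in many nuclei.

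Among the zinc finger homeobox genes, Zfhx4, a very large protein with many zinc fingers and homeodomains (gene at chr3:5218526-5415857, plus strand, mm10), had the largest F of all 28. Its libraries were from 217 to 1114 CPM with a median of 648 (n = 6) in the mediodorsal nucleus MD. In LD, the laterodorsal nucleus, they were 258, 398, 540.3, 628 and 825 CPM, and in LP, the lateral posterior nucleus, from 346 to 840.0 CPM with a median of 458 (n = 9). The 3 nuclei are the highest and their ranges overlap. In VA it was from 20.96 to 94.8 CPM with a median of 62.9 (n = 8), in VL from 23.8 to 119 CPM with a median of 63.2 (n = 6) and in CM 63.8, 65.4, 86.8 and 98.1 CPM. Every MD, LD and LP library lay above every VA and VL library, and the ratio of the highest to the lowest nucleus mean (MD over VA) was 10.3 (F = 20.1, adjusted p = 1.21e-26).

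The 3 teashirt genes, zinc finger homeodomain repressors that pattern the embryo, differed in their high nuclei. Tshz2 (chr2:169633013-170071816, plus strand) was from 71.9 to 175 CPM with a median of 96.9 (n = 6) in VM. In VA it was from 59.1 to 129 CPM with a median of 85.3 (n = 8) and in VL from 38.9 to 139 CPM with a median of 73.0 (n = 6). The 3 motor nuclei overlapped one another and were the highest 3 of the 22. In IMD the libraries were 3.22, 3.72, 3.82 and 4.41 CPM and in SPA 1.21, 3.05, 3.10 and 9.15 CPM. No library of VM, VA or VL was as low as any of IMD or SPA, nuclei picked here as high and low. The joint test over the 22 nuclei gave F = 11.5, adjusted p = 9.86e-18. Its exons overlap 2 lincRNA genes on the other strand, so reads of both strands could not be told apart where strand was not used. The same limit holds for Pou2f1, Zfhx2, Cux1, Zeb1, Satb1, Pou1f1, Zhx3 and Otx2, whose exons also overlap genes on the other strand. Exons of Zhx1, Pou2f2, Pbx2, Zhx3, Otx2 and Satb1 overlap genes on the same strand.

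Tshz3 was highest in PCN, at 44.5, 56.0, 96.6 and 99.0 CPM, followed by VM, from 34.9 to 186 CPM with a median of 44.7 (n = 6), and VA, from 41.9 to 102 CPM with a median of 66.4 (n = 8). In MD it was from 0.167 to 26.2 CPM with a median of 10.8 (n = 6), below every PCN, VM and VA library (F = 3.80, adjusted p = 1.17e-05). Tshz1 was highest in VPMpc, the taste nucleus, from 52.6 to 256 CPM with a median of 103 (n = 6), where 1 library stood above the rest. In AV, the anteroventral nucleus, it was from 0.124 to 28.6 CPM with a median of 8.99 (n = 8), all under the lowest VPMpc library (F = 3.59, adjusted p = 2.88e-05). The high nuclei of the 3 genes differed: VM, VA and VL for Tshz2, PCN, VM and VA for Tshz3, VPMpc for Tshz1.

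Zfhx2, another giant zinc finger homeodomain gene, was from 173 to 269 CPM with a median of 243 (n = 6) in VM. In IMD it was 31.1, 63.1, 69.5 and 84.8 CPM, with no overlap (F = 4.88, adjusted p = 1.19e-07, or adjusted p = 0.141 with the date in the fit). Zfhx3, known for its role in the circadian clock of the hypothalamus, was 858, 872, 1405 and 2293 CPM in VB and 549, 556, 579 and 673 CPM in IMD. The VB libraries all lay above the IMD libraries (adjusted p = 0.00192 between nuclei, 0.0528 with the date in the fit), and the VB range of oligodendrocyte markers given above goes with them; its part in the difference was not tested. Zeb1, a repressor best known from epithelial to mesenchymal transition, was 311, 391, 414 and 428 CPM in the anterodorsal nucleus AD and 119, 124, 143 and 144 CPM in PF, again without overlap (F = 5.07, adjusted p = 5.40e-08). Of the Zhx genes, ubiquitous zinc finger and homeobox repressors, Zhx1 was from 98.2 to 311 CPM with a median of 146 (n = 6) in VPMpc and from 60.3 to 114 CPM with a median of 74.8 (n = 6) in VL, with overlapping ranges (adjusted p = 0.00178, or 0.9502 with the date in the fit). Zhx2 and Zhx3 were not called: the means of Zhx3 ran from 74.9 to 137 CPM, a ratio of 1.83, the smallest among the 28. Zhx2 was called with edgeR's newer quasi-likelihood method (adjusted p = 0.00490).

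**Figure D2:**
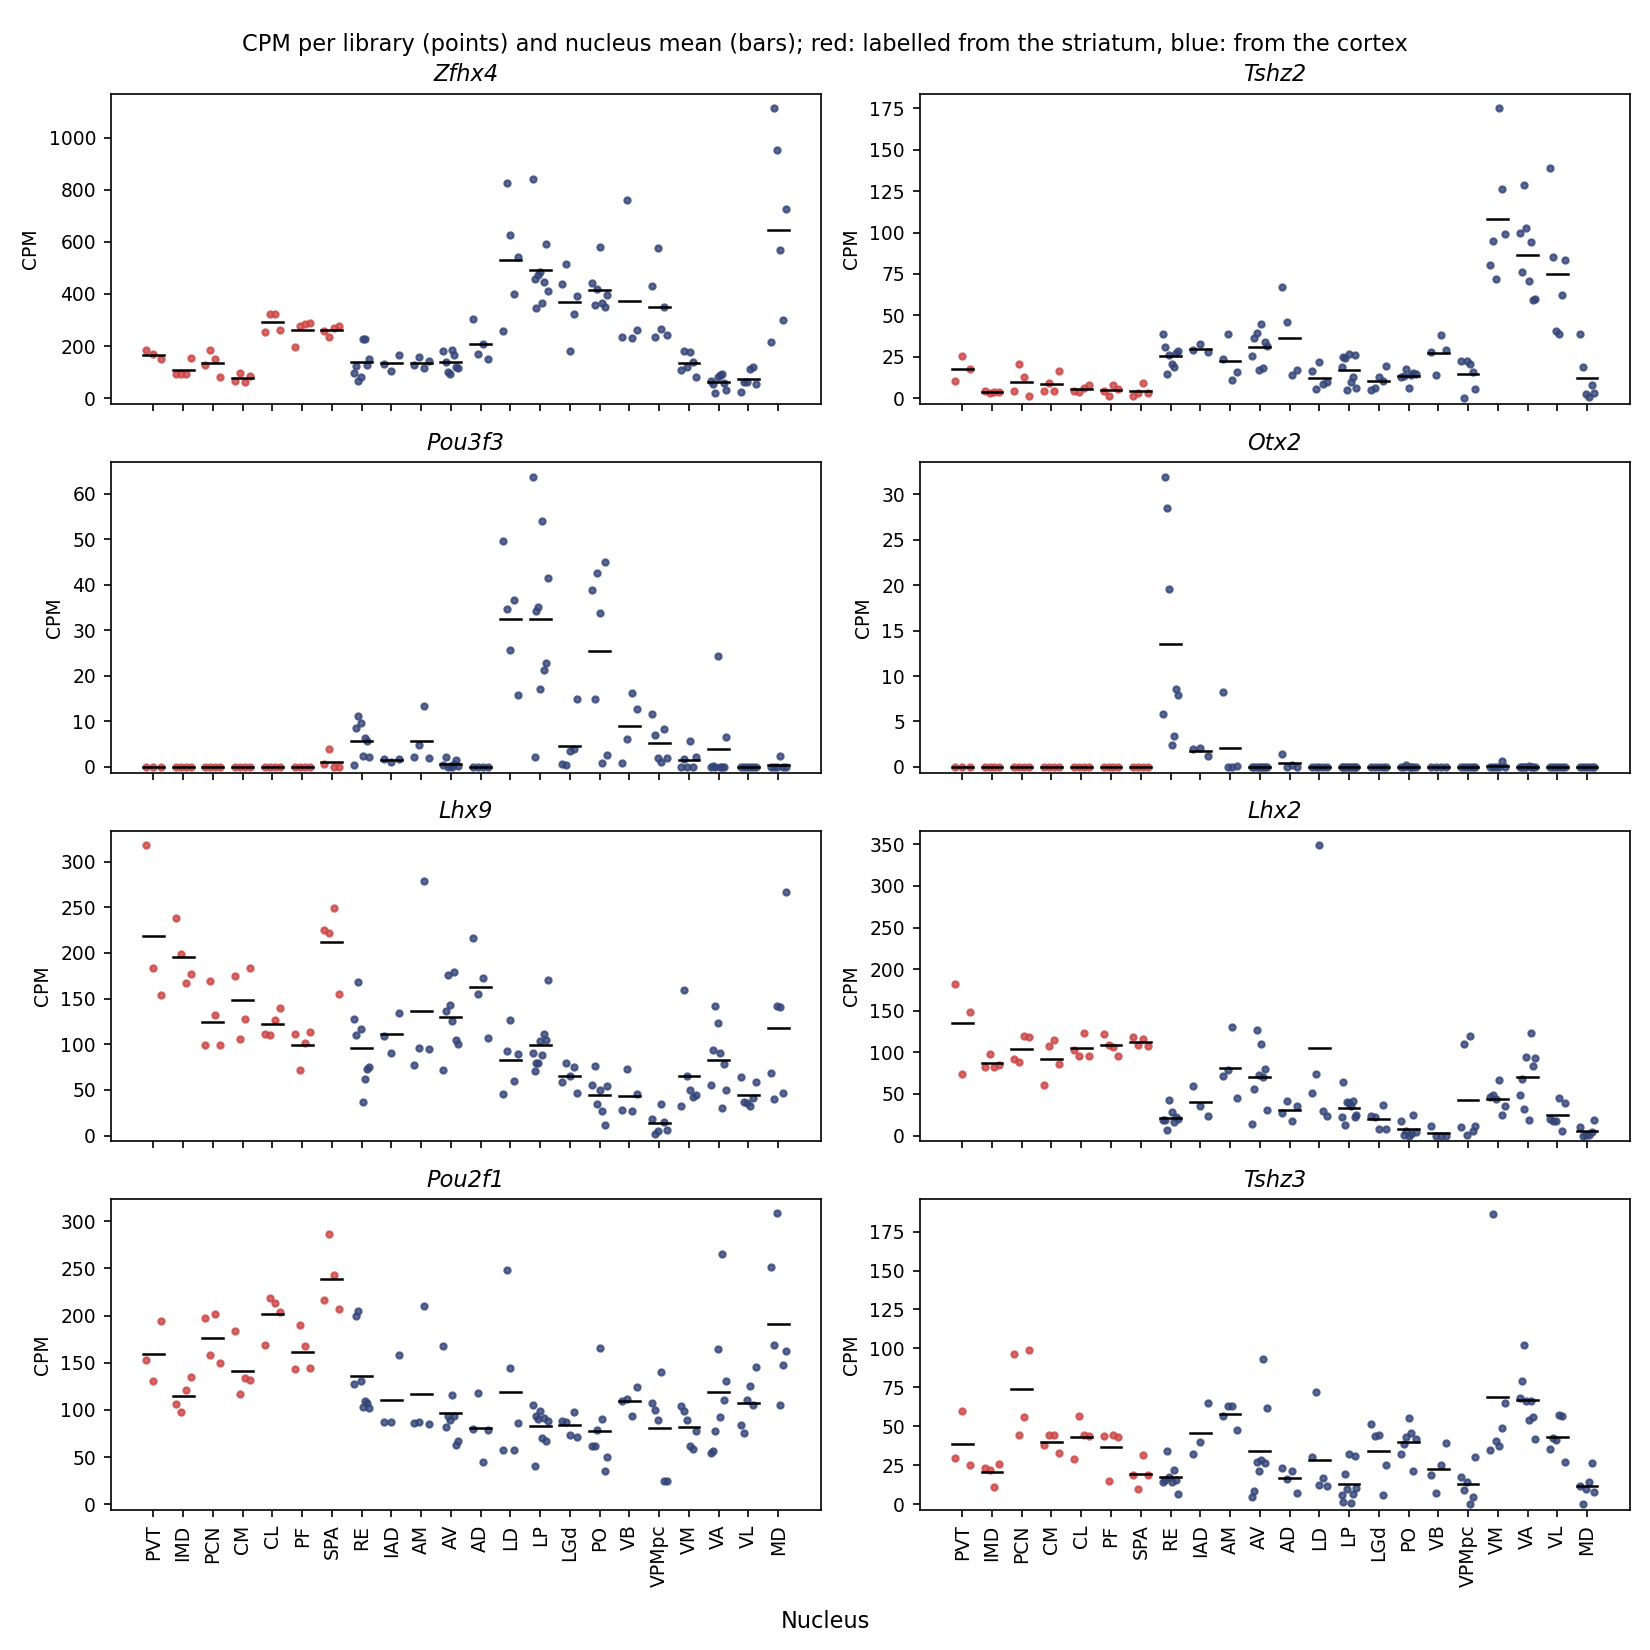
CPM of every library (points) by nucleus for Zfhx4, Tshz2, Pou3f3, Otx2, Lhx9, Lhx2, Pou2f1 and Tshz3, 1 panel per gene. Tshz2 is high in VM, VA and VL, and Otx2 is near 0 outside RE, AM, IAD and AD.

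Among the POU genes, Pou3f3 (also called Brn1, a factor of developing cortical and other neurons, chr1:42695768-42703176, plus strand) was present in some nuclei and without a read in others. In LD it was 15.8, 25.7, 34.6, 36.7 and 49.7 CPM. In LP it was from 2.17 to 63.8 CPM with a median of 34.3 (n = 9) and in PO, the posterior nucleus, from 0.817 to 45.1 CPM with a median of 33.9 (n = 7). It had no read in PVT, IMD, PCN, CL, PF, AD or the AAV libraries of CM, where 3 reads over a group would be 0.0288 to 0.0677 CPM, and 1 read in VL. The LD mean was at least 480.4-fold higher than in those 7 groups, a bound that covers counting error only (F = 10.1, adjusted p = 1.40e-14 over the 22 nuclei). The bound does not hold for the DiI libraries of CM, at 0.0582, 0.0640 and 9.66 CPM. Within LP and PO the libraries spread widely, so that their lowest were far under the lowest LD library.

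Pou2f1 (Oct1), a broadly expressed octamer-binding factor, was 207, 217, 243 and 287 CPM in SPA and 169, 204, 213 and 219 CPM in CL. In PO it was from 35.3 to 166 CPM with a median of 61.6 (n = 7), where all libraries lay under those of SPA and CL (F = 4.24, adjusted p = 1.81e-06). Its relative Pou2f2 (Oct2), best known from B cells, was from 2.69 to 102 CPM with a median of 38.5 (n = 9) in LP and from 0 to 2.06 CPM with a median of 0.198 (n = 6) in MD (no overlap; adjusted p = 0.000234). Pou1f1, the pituitary factor Pit1, was 0, 0.0811, 5.60, 14.99 and 53.0 CPM in LGd, where 1 library held most of the reads, and at 0 in all 6 MD libraries (adjusted p = 0.00159, and 0.0812 with limma-voom and the animal as a random block). Pou5f2 was called at means that reached 8.62 CPM in MD, and it had reads in 39 of 120 libraries. Pou6f1 ran from 5.51 to 27.2 CPM and was not called, but edgeR's newer quasi-likelihood method and limma-voom with the animal as a random block did call it.

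Both LIM genes, factors of the developing thalamus, were high in PVT and SPA, and each was low in other nuclei, Lhx9 in VPMpc and Lhx2 in VB. Lhx9 (chr1:138825186-138848577, minus strand) was 154, 183 and 318 CPM in PVT and 154, 222, 225 and 249 CPM in SPA. In IMD it was 167, 177, 199 and 238 CPM, overlapping both. In VPMpc it was from 1.46 to 34.3 CPM with a median of 10.4 (n = 6), below every library of those 3 nuclei (F = 8.38, adjusted p = 1.92e-13). Lhx2 (chr2:38339281-38369733, plus strand) was 74.0, 148 and 183 CPM in PVT and 108, 108, 116 and 119 CPM in SPA. In VB it was 0, 0, 0 and 11.7 CPM, in MD from 0 to 18.9 CPM with a median of 2.93 (n = 6) and in PO from 0 to 24.6 CPM with a median of 3.97 (n = 7). No library of VB, MD or PO reached those of PVT or SPA (F = 5.01, adjusted p = 7.12e-08). The highest single library was 1 LD library at 349 CPM, while LD as a whole held 23.8, 29.2, 51.3, 73.7 and 349 CPM.

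Of the TALE genes, partners of Hox and other homeodomain proteins, Pknox2 was called (adjusted p = 0.0323, or 0.121 with the date in the fit), with means from 8.98 CPM in VL to 82.1 CPM in VPMpc. Pbx2, Pbx4 and Meis3 were not called (adjusted p = 0.0992, 0.0945 and 0.604). Meis3 was called with limma-voom and the animal as a random block (adjusted p = 0.000469). Pbx4 was called with that method, DESeq2 and edgeR's newer quasi-likelihood method, and also without VB replicate 4. Pbx2 was called with DESeq2, without animals older than 400 days and without the libraries high in oligodendrocyte markers.

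Among the CUT genes, Cux1, a repressor best known with Cux2 from upper-layer cortical neurons, was from 224 to 485 CPM with a median of 319 (n = 8) in AV and 263, 336 and 340.0 CPM in IAD. In IMD it was 94.0, 105, 121 and 126 CPM, below both (F = 6.11, adjusted p = 8.03e-10). Cux2 was from 75.3 to 779 CPM with a median of 138 (n = 6) in VPMpc, with 1 library far above the others. In AD it was 14.6, 28.8, 36.0 and 69.3 CPM, under every VPMpc library (F = 4.81, adjusted p = 1.64e-07). Satb1, a chromatin organiser known from T cells and cortical interneurons, was 80.6, 93.1, 97.4 and 164 CPM in the anteromedial nucleus AM. In RE, the nucleus reuniens, it was from 9.84 to 27.8 CPM with a median of 16.6 (n = 8) and in PVT 7.95, 13.7 and 21.3 CPM; the AM libraries were above all of these (adjusted p = 0.000946). Onecut2, a factor of liver and neuronal differentiation, was from 86.4 to 272 CPM with a median of 151 (n = 6) in MD, from 62.9 to 133 CPM with a median of 124 (n = 9) in LP and 22.7, 31.3, 35.4, 42.4 and 72.9 CPM in LGd. The MD libraries did not overlap those of LGd, and those of LP did (F = 3.68, adjusted p = 1.99e-05).

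Otx2, the PRD-like factor that patterns the forebrain and midbrain (chr14:48657677-48673819, minus strand), was found mainly in RE, from 2.42 to 32.0 CPM with a median of 8.25 (n = 8), and every RE library held reads. In IAD it was 1.21, 1.94 and 2.06 CPM. AM held 0, 0, 0.0498 and 8.202 CPM and AD 0, 0, 0.236 and 1.39 CPM, so that 1 library in each stood apart. Single libraries of VM, PO and VA held 0.604, 0.168 and 0.0593 CPM. The RE mean of 13.5 ± 11.6 CPM (SD, n = 8) was at least 221-fold higher than in the 15 nuclei without a read. The test between nuclei gave F = 11.8, adjusted p = 1.37e-11, but adjusted p = 0.678 with the date in the fit, which sets RE against AM alone in its set, and 0.487 with DESeq2. The summed inhibitory neuron markers of the RE libraries, given above, were never 0, and their part in the result was not tested. Exons of Otx2 overlap those of Otx2os1 on the other strand.

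Six4, a SINE factor of muscle and sensory development, was 4.44, 24.9, 74.6 and 86.0 CPM in AD and from 0.154 to 90.3 CPM with a median of 15.5 (n = 8) in AV. In PVT it was 0, 0.125 and 4.09 CPM, under every AD library but not under every AV library (adjusted p = 0.00111, or 0.583 with the date in the fit).

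Each nucleus was next set against the mean of the other 21. Over 616 such tests of a gene in a nucleus, 113 were called, 75 higher and 38 lower, against 12% of all tests over all genes (9.35% higher, 2.61% lower). The 22 tests of a gene share libraries and are not independent. The 4 genes averaging under 5 CPM (Otx2, Pou5f2, Pou1f1 and Pbx4) hold 17 of these calls, and Pou3f3 holds 10. The mean of the others is taken on a log scale over nuclei without reads there, so the sizes of these calls were not read. The other calls follow by nucleus, with log2 differences from the other 21. Counts by nucleus are of genes averaging at least 5 CPM. The background shares beside them are over all genes tested, without that limit and in either direction.

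MD had the most calls among genes averaging at least 5 CPM, 10 of 24, where 31.6% of all genes were called. Zfhx4 (log2 1.75), Onecut2 (0.96), Zhx1 (0.51), Zhx2 (2.40), Pknox2 (1.24) and Pou2f1 (0.70) were higher there, and Lhx2 (-2.97), Pou2f2 (-4.26), Tshz3 (-1.48) and Pbx2 (-1.26) lower. Zhx2 and Pbx2 were not called in the joint test. The mean CPM of Zhx2 was highest in MD (67.7 CPM), but its mean log2 CPM over libraries was not. That was 3.79 in MD, under AD (4.02), LP (3.92) and PF (3.91), so its log2 2.40 depends on the scale of the mean. VPMpc had 9 (background 24.4%): Tshz1 (2.45), Pknox2 (1.87), Zfhx4 (0.83), Cux2, Zhx1, Onecut2 and Pou3f3 higher, and Lhx9 (-2.95) and Tshz3 (-1.35) lower. IMD had 1 higher and 6 lower (background 13% in either direction, not split by direction). There Lhx9 was higher (1.11), and Tshz2 (-2.27), Zfhx2 (-1.05), Zfhx4 (-0.94), Cux1 (-0.76), Cux2 (-1.05) and Zfhx3 (-0.71) were lower.

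The motor nuclei VA, VL and VM shared higher Tshz2 (log2 2.45, 2.24 and 2.78) and higher Zfhx2 (0.75, 0.69 and 0.96), against backgrounds of 12.1%, 11% and 7.32% of all genes called. Zfhx2 was also higher in LP (0.62) and LD (0.68). Tshz3 was higher in VA and VM, Zfhx4 was lower in VA and VL, and VL was lower in Lhx9 (-1.12) and Onecut2 (-0.91). The sensory and association nuclei LP, LGd, PO and VB, with MD, LD and VPMpc, were the 7 in which Zfhx4 was higher, with backgrounds of 17.4%, 9.43%, 13.6%, 10.1% and 14.7% in LP, LGd, PO, VB and LD. Zfhx4 was lower in 6: IMD, CM, VA, VL, RE and AV. Lhx9 was lower in PO (-1.14) and VB (-1.17), and Lhx2 in PO (-2.62) and VB (-4.03). LP was higher in Pou2f2 (2.29) and lower in Pou2f1 (-0.56) and Tshz3 (-1.30), and LGd was lower in Onecut2 (-1.11). PO was higher in Cux2 (0.73) and lower in Pou2f1 (-0.65), and VB was higher in Zfhx3 (0.55).

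In the anterior nuclei, Six4 and Zeb1 were called higher in both AD (2.61 and 1.02) and AV (1.79 and 0.50), with backgrounds of 13.1% and 20%. Zeb1 was also higher in VB (0.77) and LD (0.76). AV was also higher in Cux1 (0.93) and Tshz2 (0.89), while AD was lower in Cux2 (-1.74) and Pou2f2 (-4.04). AM (background 5.52%) was higher in Satb1 (1.38) and Cux1 (0.56). RE was lower in Satb1 (-1.38), Zfhx4 (-0.58), Zeb1 (-0.56) and Zfhx3 (-0.54), at a background of 15.7%. RE was higher in Pknox2 (1.15) and Zhx1 (0.60). SPA (background 9.47%) was higher in Lhx9 (1.24) and Pou2f1 (1.04) and lower in Tshz2, Cux2 and Cux1. PVT (background 11.3%) was higher in Lhx9 (1.28) and Lhx2 (1.75) and lower in Cux2 (-1.32), and IAD (background 3.05%) was higher in Cux1 (0.80). Of the intralaminar nuclei, CL had 1 call (Pou2f1 higher, background 4.63%), CM 1 (Zfhx4 lower, 5.94%) and PF 1 (Tshz2 lower, 4.78%). For PCN edgeR called 0 of the 24 genes averaging at least 5 CPM, against 4.85% of all genes. Of those 24, 7 had an unadjusted p under 0.05 in PCN, DESeq2 called 1 (Pou3f3) and limma-voom 4.

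Nuclei labelled by DiI from the same target were compared directly, so that tracer and target do not differ. The 11 pairs share groups (VA, VL and VM; AD, AV and LD; RE, AM and IAD), and comparisons that share a group are not independent. Few of these genes were called in the visual, somatosensory and motor pairs, and most in the retrosplenial ones. All genes tested ran the same way: 5.50% to 6.73% were called in the retrosplenial pairs. In the visual, somatosensory and motor pairs 0.127% to 3.62% of all genes were called.

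**Figure D3:**
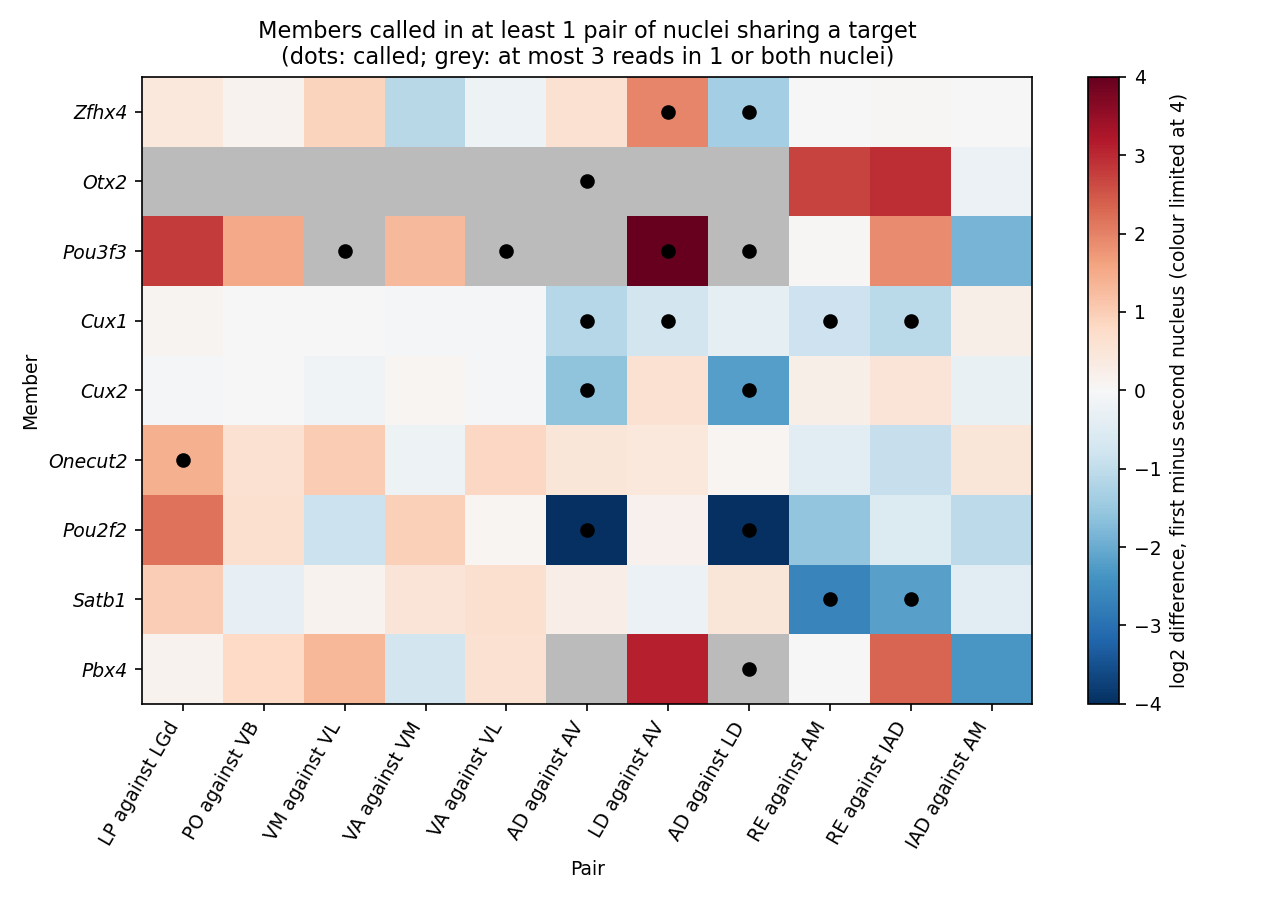
Log2 differences of the 9 genes called in at least 1 of the 11 pairs (rows) in each pair (columns), with dots where called, grey where either nucleus held at most 3 reads, and colour limited at 4. The dots gather in AD against AV, LD against AV and AD against LD, the pairs in which the largest shares of all genes were called.

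Of the 2 nuclei labelled from primary visual cortex, LP is a higher-order nucleus and LGd, the dorsal lateral geniculate, relays the retina. Onecut2 was from 62.9 to 133 CPM with a median of 124 (n = 9) in LP against 22.7, 31.3, 35.4, 42.4 and 72.9 CPM in LGd. The ranges overlapped, with most LP libraries above every LGd library. It was the only one of the 28 genes called (log2 difference 1.43, SE 0.36, adjusted p = 0.00625), against 3.62% of all genes. Summed oligodendrocyte markers were up to 852 CPM in LP and up to 123 CPM in LGd, and their part was not tested.

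Between PO and VB, the higher-order and relay nuclei labelled from barrel cortex, edgeR called 0 of the 28 genes, against 2.65% of all genes; 3 had an unadjusted p under 0.05 (Zhx3, Pou5f2 and Zeb1), DESeq2 called 1 (Zeb1) and limma-voom 1 (Pou5f2). Zeb1 came nearest: from 120.05 to 218 CPM with a median of 186 (n = 7) in PO and 146, 253, 308 and 605 CPM in VB (log2 difference -0.87, SE 0.27, adjusted p = 0.0515). Without VB replicate 1 the count was 2, and without VB replicate 4 it was 1. Summed oligodendrocyte markers had a median of 365 CPM in VB, the highest of the groups, and 3.43 CPM in PO, and their part was not tested.

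Among the motor nuclei, Pou3f3, named after its values were seen because its level is under 5 CPM, was from 0 to 24.3 CPM with a median of 0.0586 (n = 8) in VA and from 0 to 5.75 CPM with a median of 0.825 (n = 6) in VM, with 1 read in all 6 VL libraries. It was called in VA against VL (adjusted p = 0.00370) and VM against VL (adjusted p = 0.0212), the ratios to VL being 381 (95% counting interval 68.0 to 15065) and 165 (29.3 to 6558). The groups overlapped at 0 and 1 VA library and 1 VM library held most of the reads, and neither edgeR's newer quasi-likelihood method nor limma-voom with the animal as a random block called either difference. In fits of the compared groups alone, with or without the replicate number as a block, Pou3f3 did not pass the filter. It was the 1 gene of the 28 called in VA against VL (background 2.21%) and in VM against VL (background 1.69%). In VA against VM edgeR called 0 (background 0.127%), 1 gene having an unadjusted p under 0.05 (Zfhx4), and DESeq2 called 1 (Zfhx4). Summed oligodendrocyte markers were up to 3206 CPM in VA, 183 CPM in VL and 362 CPM in VM, and their part was not tested.

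The retrosplenial-labelled nuclei AD, AV and LD are anterior nuclei of the limbic thalamus, and AD and LD are known for head direction cells. Between AD and AV, 4 of the 28 genes were called, 1 higher and 3 lower in AD, against 5.69% of all genes (2.79% higher, 2.90% lower). Pou2f2 was 0, 0, 0.171 and 2.54 CPM in AD and from 0.485 to 34.8 CPM with a median of 11.3 (n = 8) in AV, where the ranges overlapped (log2 difference -4.56, SE 1.27, adjusted p = 0.0133). Cux2 was 14.6, 28.8, 36.0 and 69.3 CPM in AD and from 67.4 to 169 CPM with a median of 114 (n = 8) in AV, overlapping at the edge (log2 difference -1.59, SE 0.40, adjusted p = 0.00407). Cux1 was 127, 128, 183 and 185 CPM in AD, below every AV library (log2 difference -1.13, SE 0.25, adjusted p = 0.000672). Outside the naming rule, at under 5 CPM, Otx2 had 14 reads in AD and none in AV, at least 14.0-fold higher in AD, and 1 AD library held most of them (adjusted p = 0.0346), and it was not called without that library, with the date in the fit, with DESeq2 or with limma-voom. Without AD replicate 2 the count of 4 fell to 2, the calls of Pou2f2 and Cux2 being lost; Pou2f2 was also lost without AD replicate 3 or 4 and with the newer quasi-likelihood method, and Cux2 with limma-voom and the animal as a random block. Of 4 shared replicate numbers 2 mark the same animals, and with the number as a block Cux1 was still called (log2 difference -1.30, adjusted p = 0.0380), while Cux2 (adjusted p = 0.189) and Pou2f2 (adjusted p = 0.241) were not. Within the 1 date both groups share, Pou2f2, Cux2 and Cux1 kept the same direction.

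Between LD and AV, 3 genes were called, 2 higher and 1 lower in LD, against 5.50% of all genes (3.58% higher, 1.92% lower). Zfhx4 was 258, 398, 540.3, 628 and 825 CPM in LD and from 94.5 to 185 CPM with a median of 129 (n = 8) in AV (log2 difference 1.95, SE 0.29, adjusted p = 2.31e-07). Pou3f3 was 15.8, 25.7, 34.6, 36.7 and 49.7 CPM in LD and from 0 to 2.25 CPM with a median of 0.235 (n = 8) in AV (log2 difference 5.70, SE 1.38, adjusted p = 0.00435, and adjusted p = 0.503 with the date in the fit). Both genes separated the groups without overlap. Cux1 was 162, 192, 203, 217 and 249 CPM in LD and from 224 to 485 CPM with a median of 319 (n = 8) in AV, with overlap (log2 difference -0.74, SE 0.22, adjusted p = 0.0308), and the call was lost with the date in the fit (adjusted p = 0.910) and without LD replicate 1, 2 or 4. The 1 shared date holds 2 LD and 3 AV libraries, in which all 3 genes differed in the same direction.

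Between AD and LD, which share no amplification date with each other but each share 1 with AV, 5 genes were called, all lower in AD, against 6.73% of all genes (2.57% higher, 4.16% lower). Pou3f3 was without reads in the 4 AD libraries and 15.8, 25.7, 34.6, 36.7 and 49.7 CPM in LD, at least 480.4-fold higher. Pbx4 had 1 read in AD and 0, 0, 0.359, 14.1 and 38.7 CPM in LD, a ratio of 382 (95% counting interval 68.2 to 15119), with the groups overlapping at 0, and its difference turned to log2 3.27 (adjusted p = 0.862) with the date in the fit. Pou2f2 was 0, 0, 0.171 and 2.54 CPM in AD and 0.513, 5.77, 12.7, 29.2 and 38.8 CPM in LD, with overlap (log2 difference -4.73, SE 1.31, adjusted p = 0.0117). Outside the naming rule, Cux2 (log2 difference -2.19, SE 0.43, adjusted p = 9.79e-05) did not overlap, and Zfhx4 (log2 difference -1.35, SE 0.36, adjusted p = 0.00787) did. With the date in the fit 1 of the 28 genes was called, and without AD replicate 2, 3 or 4 the count was 3. Neither Pbx4 nor Pou2f2 was called in any of these 4 fits.

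From cingulate cortex, RE was lower than AM and IAD in the same genes, Satb1 and Cux1; both comparisons share the RE libraries. Satb1 was from 9.84 to 27.8 CPM with a median of 16.6 (n = 8) in RE, 80.6, 93.1, 97.4 and 164 CPM in AM and 50.4, 60.5 and 126 CPM in IAD. Every RE library lay below every AM and IAD library (RE against AM: log2 difference -2.64, SE 0.53, adjusted p = 0.000396; RE against IAD: log2 difference -2.18, SE 0.56, adjusted p = 0.0184). Cux1 was from 125 to 226 CPM with a median of 137 (n = 8) in RE and 217, 221, 292 and 339 CPM in AM, overlapping in 1 RE library (log2 difference -0.84, SE 0.23, adjusted p = 0.0257). In IAD it was 263, 336 and 340.0 CPM, above all RE libraries (log2 difference -1.06, SE 0.25, adjusted p = 0.00484). These were 2 of the 28 genes in each comparison, with 1.84% and 1.33% of all genes called. Same-numbered RE and AM libraries came from the same 4 animals: with the replicate number as a block Satb1 was still called (log2 difference -2.47, adjusted p = 0.00354), Cux1 was not (adjusted p = 0.103), and Pknox2 was called higher in RE (log2 2.41, adjusted p = 0.0193). RE against AM gave 1 call, Satb1, without AM replicate 1 or 3 and also with the amplification date in the fit. RE against IAD gave 1 without IAD replicate 2 and 0 without IAD replicate 3. IAD shares no amplification date with RE or AM, so in those pairs nucleus and date cannot be told apart. Summed inhibitory neuron markers were at most 5.64 CPM in AM and 7.98 in IAD, below every RE library, and their part in the differences was not tested. Between IAD and AM edgeR called 0 genes of all tested (background 0%), 0 of the 28 at an unadjusted p under 0.05, and DESeq2 called 0 of them.

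The 7 striatum-labelled nuclei were compared with the 15 cortex-labelled ones after summing the counts of each nucleus, so that nuclei are the replicates. Of the 27 of these genes that passed the filter (Otx2 did not), 9 were called, 3 higher and 6 lower in the striatum-labelled nuclei, against 18.4% of the 15440 genes tested (8.58% higher, 9.80% lower). Their median log2 difference was -0.13, and that of all genes -0.08. The striatum-labelled nuclei were labelled by AAV and the cortex-labelled ones by DiI, so tracer, target and class cannot be told apart here. All 9 genes had overlapping classes.

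The 3 higher genes were Lhx2, Lhx9 and Pou2f1. Lhx2 ran from 91.8 (IMD) to 141 CPM (PVT) with a median of 108 over the 7 nuclei and from 3.07 (VB) to 108 CPM (LD) with a median of 33.2 over the 15. Of the cortex-labelled nuclei 14 lay below every striatum-labelled one (log2 difference 1.46, SE 0.43, adjusted p = 0.0190). Lhx9 ran from 103 (PF) to 226 CPM (PVT) with a median of 153 and from 13.7 (VPMpc) to 159 CPM (AD) with a median of 79.2, with 10 of 15 below (log2 difference 0.97, SE 0.29, adjusted p = 0.0205). Pou2f1 ran from 121 (IMD) to 247 CPM (SPA) with a median of 169 and from 77.0 (PO) to 175 CPM (MD) with a median of 106, with 13 of 15 below (log2 difference 0.78, SE 0.15, adjusted p = 0.00115).

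Of the 6 lower genes, Pou3f3 ran from 0 (CL) to 1.22 CPM (SPA) with a median of 0 over the striatum-labelled nuclei, 6 of which had no read, and from 0 (AD) to 33.9 CPM (LD) with a median of 5.08 over the cortex-labelled ones (adjusted p = 0.0174). Tshz2 ran from 3.98 (IMD) to 17.9 CPM (PVT) with a median of 6.02 and from 11.6 (MD) to 108 CPM (VM) with a median of 26.1, with 9 cortex-labelled nuclei above every striatum-labelled one (log2 difference -2.13, SE 0.49, adjusted p = 0.00386). Zfhx2 ran from 67.0 (IMD) to 111 CPM (CL) with a median of 90.8 and from 89.5 (RE) to 236 CPM (VM) with a median of 159, with 11 above (log2 difference -0.80, SE 0.18, adjusted p = 0.00374). Cux2 also had 11 above (log2 difference -0.73, SE 0.23, adjusted p = 0.0280), while AD lay below all 7 striatum-labelled nuclei. Six4 (log2 difference -1.75, SE 0.49, adjusted p = 0.0153) and Cux1 (log2 difference -0.48, SE 0.16, adjusted p = 0.0357) had 8 and 7 above. The motor nuclei VM, VA and VL were the 3 highest for Tshz2. Sex also differs between the classes, as given above for each group.

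**Figure D4:**
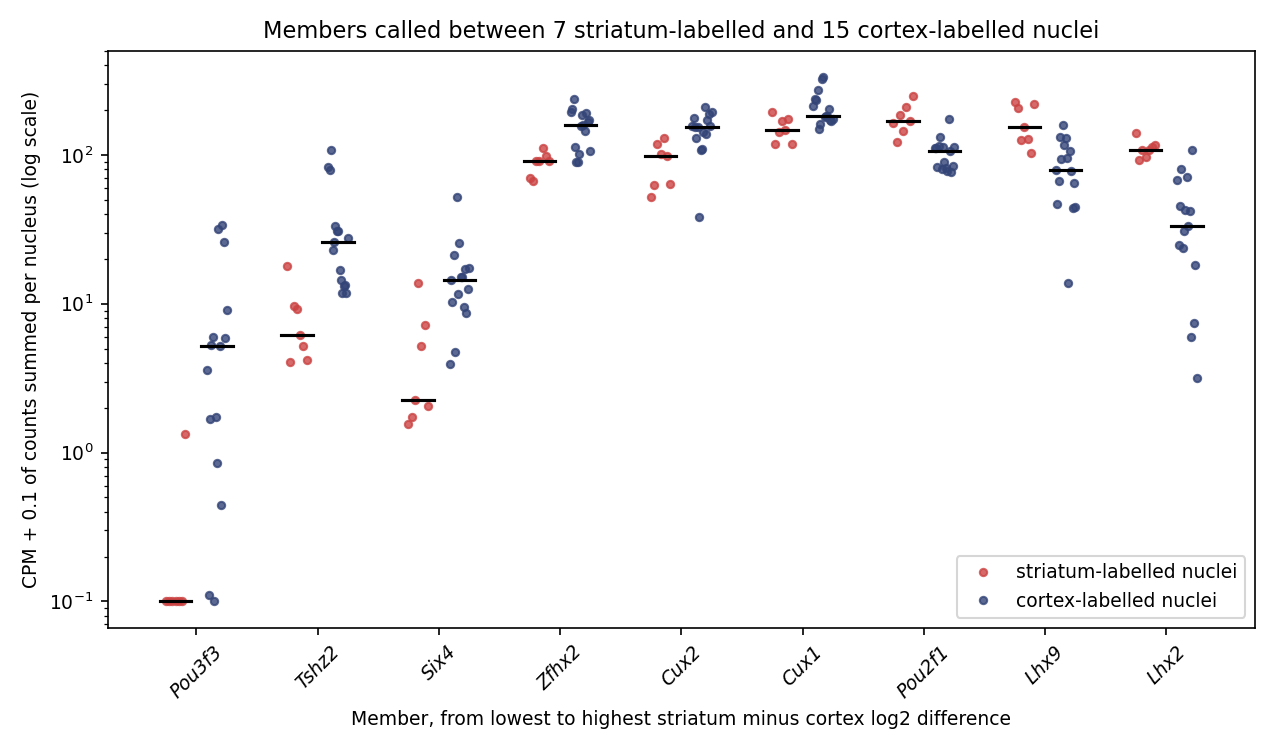
CPM of the summed counts of each nucleus (points, log axis of CPM + 0.1) for the 9 genes called between the 7 striatum-labelled and 15 cortex-labelled nuclei. The classes overlap for all 9 genes; Lhx2 has 14 of 15 cortex-labelled nuclei below the striatum-labelled ones.

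Only 2 amplification dates hold both classes, with PVT and IMD beside VA and VL on the first and CM, by its DiI libraries, beside VA, VL and VM on the second. The tracer thus differs between the classes on the first date but not on the second. Within them, with the date as a block, 6 genes were called: Lhx9, Pou2f1, Tshz2, Cux2 and Zfhx2 in the same direction as over all nuclei, and Zfhx4, higher in the striatum-labelled nuclei (log2 1.22, adjusted p = 0.0384). On the first date Lhx9 averaged 213 CPM in the striatum-labelled and 72.0 CPM in the cortex-labelled nuclei, and on the second 179 and 50.3 CPM. Tshz2 averaged 10.8 against 107 CPM and 18.7 against 82.4 CPM. The other 4 calls were lost there (adjusted p = 0.0752 for Lhx2, 0.326 for Six4, 0.404 for Cux1 and 0.872 for Pou3f3). Means of Lhx2, Six4 and Cux1 kept their direction on both dates. Pou3f3 averaged 0 CPM in the striatum-labelled against 0.0449 CPM in the cortex-labelled nuclei on the first date. On the second it went the other way, 3.44 against 1.49 CPM, with most CM reads in 1 library. These dates hold motor nuclei alone for the cortex class. Counts were summed per nucleus and date here, so VA and VL each entered on both dates. The units of this test are thus not all separate nuclei. Leaving out 1 nucleus moved the count of 9 to 6 without IMD and to 7 without PVT or SPA. With CM taken from its DiI libraries the count was 7, the calls of Pou3f3 and Cux1 being lost.

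CM was labelled from the striatum by both tracers. The 2 sets also differ in sex, age and amplification date, which cannot be told apart from the tracer. Between 4 AAV and 3 DiI libraries edgeR called 0 of the 28 genes, against 0.00605% of all genes. Of them 2 had an unadjusted p under 0.05, Pou3f3 and Zfhx4, and DESeq2 called 1, Pou3f3. Pou3f3 was at 0 in the 4 AAV libraries and 0.0582, 0.0640 and 9.66 CPM in the DiI libraries. Zfhx4 was 63.8, 65.4, 86.8 and 98.1 CPM in the AAV and 82.8, 155 and 224 CPM in the DiI libraries. The ranges of Zfhx4 overlapped.

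Other homeobox genes, outside the name pattern, were looked up from a list of 64, of which 11 were in the table. Of these 7 were called between nuclei: Prox1 (highest and lowest means 1189.8 CPM in AV, 74.3 CPM in RE, adjusted p = 1.18e-27), Shox2, Gbx2, Mkx, Hdx, Hopx and Pitx3. Of 23 partner genes of homeodomain proteins (Lmo, Ldb, Ssbp, Tle and others) 13 were in the table and 9 were called: Lmo4, Ldb1, Ldb2, Ssbp2, Ssbp3, Tle1, Tle3, Tle4 and Aes. Between the classes, Gbx2 (log2 2.26, adjusted p = 0.000862) and Hopx (log2 2.29, adjusted p = 0.0214) were higher in the striatum-labelled nuclei among the 11. Of the 13 partners Ssbp3, a partner of the LIM cofactor Ldb1, was higher (log2 1.30, adjusted p = 0.000484), and Lmo4, a LIM-only protein that competes for Ldb1 (log2 -2.74, adjusted p = 0.000140), and the corepressor Tle4 (log2 -0.95, adjusted p = 0.0372) were lower. Ldb1 itself was not called (log2 0.46, adjusted p = 0.163).

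Across the 22 nuclei, each gene's nearest pattern among the 28 was taken by Pearson's r of mean log2 CPM, as a description over nuclei that share libraries and dates. The closest pairs were Cux2 with Zfhx2 (r = 0.665), Tshz2 with Cux1 (0.651), Lhx2 with Pbx4 (0.592) and Lhx9 with Pou2f1 (0.578). The most opposed were Lhx9 and Cux2 (-0.700) and Tshz2 and Zhx2 (-0.674).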

How the data were processed

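Retrogradely labelled neurons were dissociated and sorted by hand, and their amplified cDNA was sequenced. The authors deposited raw read counts per gene, made with cutadapt 1.16, STAR 2.5.3a and featureCounts 1.52 on mm10, per the submitters' processing notes. For the annotation version and strand setting nothing is given in the sources used here. A deposited table of library annotation gave animal, sex, age, cell count, pooling, amplification date and the counts of uniquely mapped reads.

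Library titles gave each group as a nucleus with its tracer and injected target. From the counts, edgeR 4.0.16 (R 4.3.3) gave TMM factors, filterByExpr kept genes (minimum count 10, minimum total 15), and 1 quasi-likelihood fit (legacy dispersions) over all 120 libraries gave every contrast but 1, with Benjamini-Hochberg adjustment over all 16527 genes tested, two-sided, and a call at adjusted p under 0.05. Striatum against cortex was fitted on counts summed per nucleus (15440 genes). Between nuclei, the AAV group stood for CM and the DiI group for AM. For a group without reads, a fold is a lower bound against 3 counts over the group; such bounds and exact binomial intervals cover counting error only. The scripts were tested on simulated data, in which false calls between the 22 nuclei gathered in genes averaging under 1 CPM. All 28 genes average more, Otx2 and Pou5f2 barely. Otx2 had reads in 19 libraries and Pou5f2 in 39, and whether the 1 CPM level holds for genes read in so few libraries was not tested. Gene coordinates, exon lengths and overlaps come from GENCODE vM21, which is on the files' build; 28 of 28 genes matched. The name rule matches 31 genes, of which 3 are not reported here.

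Values per library are given for called genes reaching 10 CPM in a nucleus, up to 20 in order of F, and in each pair for up to 3 called genes per direction reaching 5 CPM. The genes and lists were chosen with earlier results of these data known. Alternatives were DESeq2 1.42.0, limma-voom 3.58.1 with the animal as a random block, other size factors, filters and dispersions, the amplification date, and fits without single libraries or nuclei. Same-numbered libraries came from the same animals for all 4 shared numbers of RE against AM and for some in VM against VL (3 of 6), AD against AV (2 of 4), VA against VL (2 of 6), VA against VM (1 of 6) and PO against VB (1 of 4). They did not deviate together in all pairs of any comparison (correlations from -0.214 to 0.274). Replicates of a group differed by more than sampling noise (chi-square per degree of freedom 40.3 or more in 284 pairs).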

Additional observations from a re-analysis of the deposited data

Results flagged for a closer look

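In groups of 4 to 10 libraries, 13 of 54 sets of values looked at held a highest library far from the others. The measure was the gap to its nearest neighbour relative to the whole range (Dixon's 95% limit). A chance rate of 1 group in 20 holds for normally spread values in groups not picked by their results. These were the highest and lowest nuclei of named genes and the groups of pair calls, so that rate does not apply. A group with reads in 1 library alone always passes the limit. Several of them touch differences given above. Cux2 reached 779 CPM in VPMpc replicate 2 (next 194 CPM), and Tshz1 256 CPM in VPMpc replicate 5 (next 111 CPM). Pou3f3 reached 24.3 CPM in VA replicate 4 (next 6.65 CPM), 5.75 CPM in VM replicate 4 (next 2.12 CPM) and 0.0565 CPM in VL replicate 6 (next 0 CPM). Otx2 reached 1.39 CPM in AD replicate 1 (next 0.236 CPM), in the library in which Pou2f2 also stood apart, at 2.54 CPM in AD replicate 1 (next 0.171 CPM). Cux1 reached 226 CPM in RE replicate 3 (next 166 CPM) and Pou2f1 166 CPM in PO replicate 4 (next 90.6 CPM). Lhx2 was 11.7 CPM in VB replicate 1 (next 0 CPM), with no read in the other VB libraries. Zhx1 reached 114 CPM in VL replicate 1 (next 79.3 CPM) and Pou1f1 53.0 CPM in LGd replicate 4 (next 14.99 CPM). The Pbx4 value of 0.0787 CPM in AD replicate 3 (next 0 CPM) is a single read.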

How the results depend on the processing

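Counts are of the 28 genes called. Over all alternatives the 22-nuclei count ran from 16 (amplification date in the fit) to 25 (edgeR's newer quasi-likelihood method), and the count of each nucleus against the others from 101, without the libraries high in oligodendrocyte markers (an alternative chosen after seeing the data), to 118 with limma-voom. Of the tests of single genes over the 22 nuclei, 1687 kept their side of the threshold, 9 lost the call and 11 gained it; of called log2 differences 460 kept it, 68 lost it and 1 reversed, Pbx4 in AD against LD (3.27 with the date in the fit). The cause of these changes was not tested. With the date in the fit the counts were 1 in AD against LD, 1 in LD against AV, 1 in RE against AM and 0 in VM against VL; that fit could not be made for RE against IAD, IAD against AM, the CM tracers or each nucleus against the others. Fitting the compared groups alone, which tests fewer genes, gave 2 in AD against AV, 3 in AD against LD, 2 in LP against LGd, 5 in RE against AM, 0 in VA against VL and 0 in VM against VL. The replicate block on top of that gave 1 in AD against AV, 2 in AD against LD, 1 in RE against IAD and 0 in VA against VL; it gave 2 in RE against AM. The numbers mark shared animals wholly in RE against AM, in part in AD against AV and VA against VL, and not in AD against LD or RE against IAD. The newer quasi-likelihood method gave 3 in LP against LGd, 1 in PO against VB, 6 in RE against AM, 1 in VA against VM and 0 in VM against VL. Limma-voom gave 5 in LD against AV, 1 in PO against VB, 5 in RE against AM and 0 in VA against VL, and DESeq2 1 in PO against VB, 3 in RE against AM, 1 in VA against VM and 1 between the CM tracers. PO against VB also gave 1 with RLE factors, with no filter and with the stricter filter. Striatum against cortex gave 6 within shared dates. Leaving out 1 library of a group of 5 or fewer gave 22 to 23 over the 22 nuclei, 109 to 115 for each nucleus against the others, 2 to 3 in AD against AV, 3 to 5 in AD against LD, 2 to 4 in LD against AV, 0 to 2 in PO against VB, 1 to 2 in RE against AM and 0 to 2 in RE against IAD, and leaving out 1 nucleus 6 to 10 in striatum against cortex. In the fits without a library, each nucleus against the others was tested again only for the nucleus of that library. The other nuclei kept their main calls, so the range of 109 to 115 does not cover changes in them. These fits also kept the dispersion trend of all libraries. Depth limits the genes near 1 CPM: a group without reads bounds the level only at the CPM of 3 counts.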

Other observations

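AM has 1 library labelled by AAV, from 1 animal, beside the 4 labelled by DiI, all from cingulate cortex; it entered no comparison or test. In it 9 of the 28 genes lay above the range of the 4 DiI libraries and 4 below. Zfhx4 was at 568.1 CPM against 117 to 157 CPM. Pou1f1 was at 84.0 CPM against 0 to 1.59 CPM, the highest Pou1f1 value of all 120 libraries. Onecut2 was at 226 CPM against 62.0 to 105 CPM and Zeb1 at 318 CPM against 99.0 to 199 CPM. Below the range were Tshz1 (3.74 CPM against 8.75 to 20.1 CPM), Tshz3 (35.8 CPM against 47.6 to 63.2 CPM), Cux2 (91.7 CPM against 101 to 143 CPM) and Six4 (2.94 CPM against 5.00 to 60.9 CPM). Lhx2, Lhx9 and Satb1 lay inside it. Tracer, animal and amplification date cannot be told apart for this library.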
